A study of Homo sapiens with 8 samples.

Results

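The PRDM16 locus was followed on chromosome 1 of human embryonic stem cells as the window chr1:2970000-3360000 of genome build hg19, which spans 390 kb and holds the PRDM16 start site, taken at position 2985742 on the plus strand. Its members were the CpGs listed in that window in all 8 files, 2443 of the 2505234 CpGs listed in all 8 files genome-wide, and 1025 of the 2443 had at least 5 reads in every library and therefore a level. The CpGs were chosen by position, but the locus was selected on its measured levels, which stood higher at passages 27 and 28 than before, so that late rise is given as a description. Windows of chromosome 1 on either side, chr1:2500000-2970000 upstream with 1775 listed CpGs and chr1:3360000-3900000 downstream with 2780, served as the comparison.

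The libraries came from HUES64, an established human embryonic stem cell line, with DNMT3A and DNMT3B knocked out. They were taken at passages 6, 7, 8, 11, 13, 17, 27 and 28, with 1 library each, and no library of cells that keep both enzymes was analysed here. All 8 libraries carry the same genotype, DNMT1 is not among the genes named as disrupted for them, and the labels do not say whether they follow 1 clone or culture, so a difference between cultures and one between passages cannot be told apart. Reduced representation bisulfite sequencing (RRBS) was used, which reads methylation at the CpGs of a CpG-rich fraction of the genome, and the level of a CpG is the percentage of its reads that were methylated.

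DNMT3A and DNMT3B are the enzymes that place methyl groups on DNA that carries none, whereas DNMT1 copies existing marks onto the new strand after replication. PRDM16 encodes a zinc-finger transcription factor of the PR-domain family, known for directing brown fat identity, for roles in blood and neural stem cells and in craniofacial development, and for rearrangements in leukaemia. CpG-rich promoters such as those of developmental regulators are usually unmethylated, and bodies of genes are often methylated. RNA was not measured here.

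The promoter of PRDM16-DT, the divergent neighbour of PRDM16 and a long non-coding RNA gene transcribed away from it, is shown for its CpG content. The RefSeq entry, chr1:3067676-3067975 on the minus strand of GRCh38.p14, is printed with its CpGs in capitals.
PRDM16-DT: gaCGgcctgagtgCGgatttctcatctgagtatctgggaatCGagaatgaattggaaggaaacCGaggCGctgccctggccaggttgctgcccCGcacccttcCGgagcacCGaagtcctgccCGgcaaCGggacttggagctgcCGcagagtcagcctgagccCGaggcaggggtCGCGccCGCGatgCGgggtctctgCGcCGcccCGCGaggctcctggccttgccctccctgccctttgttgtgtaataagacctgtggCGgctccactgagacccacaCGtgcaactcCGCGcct
It holds 25 CpGs in 300 bases with a G and C content of 65.3%, and 32.03% of the 35116 RefSeq promoters of that length and build hold as many CpGs, with a median of 14. The motif searched was CG, which reads the same on both strands. Its place among the measured hg19 positions was not determined, so no level is assigned to it.

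At the 1025 CpGs the libraries held between 12602 reads at passage 8 and 27583 at passage 6, with medians of 11 to 26 reads per CpG. The whole libraries ranged from 19898423 reads at passage 11 to 44599588 at passage 6. The share of a library's reads that fell in the window was 0.0993% at passage 27 and 0.0999% at passage 28, against 0.105% to 0.109% at passages 6 to 17. Per read in the flanks it had 0.492 and 0.498 reads at passages 27 and 28 and between 0.512 and 0.548 before, and the part of this in the methylation values was not tested. The chi-square of methylated and unmethylated reads between libraries averaged 3.34 over CpGs between passages 27 and 17, which are 10 passages apart, and 1.54 to 1.70 between the other neighbours, so no pair agreed within sampling noise.

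Methylation of the PRDM16 promoter, the 60 CpGs within 2 kb of the start site, was close to 0 through passage 17 and stood at 13.9% and 22.4% at passages 27 and 28. Before that, the mean level at passages 6, 7, 8, 11, 13 and 17 was 0.769%, 1.67%, 1.32%, 1.55%, 0.556% and 2.09%. Both late libraries lay above all 6 earlier ones. Of the 60 CpGs, 59 started under 20%, and their mean was 13.1% and 21.3% at passages 27 and 28, against at most 1.11% before. Summed over the promoter CpGs, 107 of 807 reads were methylated at passage 27, or 13.3% with a 95% Wilson interval of 11.1% to 15.8%. At passage 28 the count was 190 of 811 reads, or 23.4% with an interval of 20.6% to 26.5%. Passage 17, the last library before them, had 11 methylated of 752 reads, or 1.46% with an interval of 0.819% to 2.60%. These intervals cover counting error only, since reads without molecular identifiers need not be independent molecules.

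The promoter rise was spread over many CpGs. Of the 60 CpGs, 2, 17 and 24 were at 20% or more at passages 17, 27 and 28. At the same passages 55, 29 and 20 CpGs had no methylated read. Levels of 50% or more were reached by 1, 4 and 9 CpGs. The 38 CpGs farther upstream in the window, before the promoter, had a mean of 8.99% at passage 27 and 14.5% at passage 28, against at most 1.01% in any earlier library.

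Within the promoter the rise was uneven. Reads were also summed over tiles of 1000 bases holding at least 3 of the kept CpGs, and each tile was fitted against passage over the 8 libraries. The tile starting at 2984001, centred 1.24 kb upstream of the start site with 13 CpGs, was at 24.0% and 41.0% at passages 27 and 28 and at no more than 3.09% in the libraries before them. It was called as a gain, that is at an adjusted p under 0.05 by the limma-moderated fit and a fitted change of at least 10 points. The tile at 2985001, which holds the start site and 22 CpGs, had 11.8% and 22.1% at passages 27 and 28 and between 1.27% and 5.02% earlier. The tile at 2987001, with 13 CpGs, had 14.2% and 20.1% late and at most 0.488% before.

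Between these tiles, the one at 2986001 with 7 CpGs just downstream of the start site stayed low. It had 1.05% at passage 27 and 7.69% at passage 28, and its fitted change was under the 10 points that a call needs. The tile at 2983001, with 5 CpGs, was at 0 in all 6 earlier libraries and at 6.94% and 10.3% late, and had too few methylated reads for a test. Levels at both ends of the promoter were higher at passage 28 than those of the tile just past the start.

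**Figure D1:**
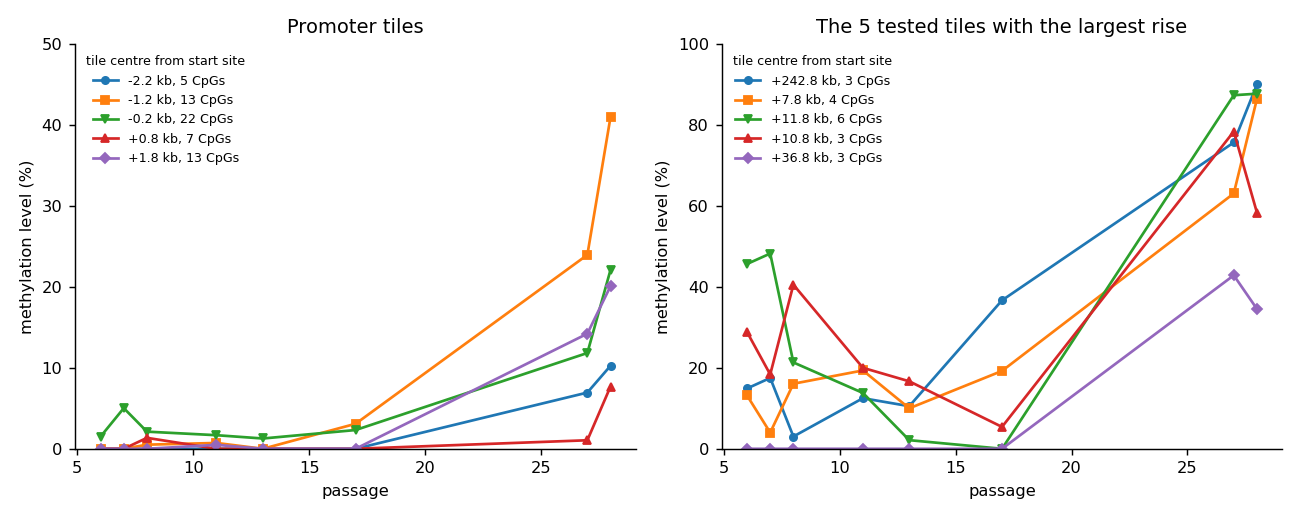
Methylation level in percent by passage for the 5 promoter tiles (left) and the 5 tested tiles of the locus with the largest rise (right), 1 point per library, named by the distance of the tile centre from the PRDM16 start site. Promoter tiles lie at or under 5.02% through passage 17, and the tile at -1.2 kb reaches 41.0% at passage 28.

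In the gene body, taken here as the window from 2 kb past the start site to its end, exons and introns were not told apart. Its 927 CpGs were split at a mean of 20% over passages 6 to 8. The 324 CpGs that started below 20% had means of 4.42%, 3.88% and 2.96% at passages 6, 7 and 8. They stood at 3.44%, 2.75% and 2.94% at passages 11, 13 and 17, and at 14.5% and 17.9% at passages 27 and 28. The last 2 libraries lay above the other 6, and the difference between the mean of passages 27 and 28 and that of passages 6 to 8 was 12.4 points, beside an SD of 0.738 points over the 3 early libraries.

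Low-start CpGs of the downstream flank moved the other way. Those 514 CpGs had a mean of 0.331% over passages 27 and 28, against 1.90% over passages 6 to 8. The 87 low-start CpGs of the upstream flank had 4.37% late and 3.16% early. Over the autosomes, 396511 CpGs of the same starting class had 0.431% late and 1.05% early.

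The rise of the low-start gene body CpGs was carried by a part of them. Of the 324, 17 (5.25%), 87 (26.9%) and 96 (29.6%) were at 20% or more at passages 17, 27 and 28. CpGs at 50% or more numbered 4, 31 and 48 at these passages. Those without a methylated read still numbered 263, 174 and 143. Of the 514 low-start CpGs in the downstream flank, 4, 2 and 0 were at 20% or more at passages 17, 27 and 28. CpGs read on the plus strand (236) averaged 16.8% late and those on the minus strand (88) 14.7%.

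**Figure D2:**
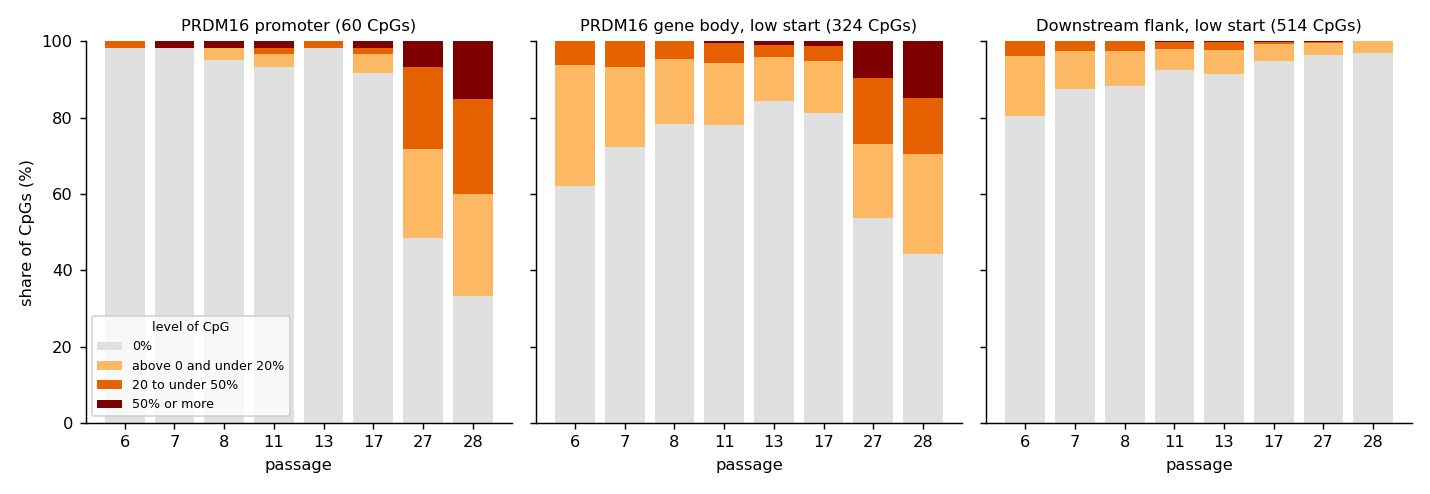
Share of CpGs in percent at each level class, by passage, for the 60 promoter CpGs, the 324 low-start gene body CpGs and the 514 low-start CpGs of the downstream flank. The share at 20% or more is 40% in the promoter and 29.6% in the gene body at passage 28, and 0% in the downstream flank.

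High-start CpGs of the gene body were lower at passages 11 to 17 and stood near their first levels again late. These 603 CpGs had means of 68.6%, 68.6% and 66.3% at passages 6, 7 and 8, then 59.96%, 56.1% and 55.6% at passages 11, 13 and 17, and 69.3% and 68.4% at passages 27 and 28. Their mean was 67.8% ± 1.35 over passages 6 to 8, 57.2% ± 2.40 over passages 11 to 17 (SD, n = 3 each) and 68.9% over passages 27 and 28. From passage 11 to 28 the slope was 0.728 points per passage (SE 0.241). The high-start CpGs of both flanks had lower means with passage, and the gene body minus the flanks moved by 1.77 points per passage (SE 0.298).

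In the downstream flank the 725 high-start CpGs had 42.3% and 38.8% at passages 27 and 28, against 71.8%, 71.1% and 69.7% at passages 6 to 8. The 586 of the upstream flank had 68.0% and 68.7% late, against 79.1% to 80.2% early. The autosomal high-start class of 489583 CpGs averaged 79.4% early, 74.7% over passages 11 to 17 and 64.3% late.

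**Figure D3:**
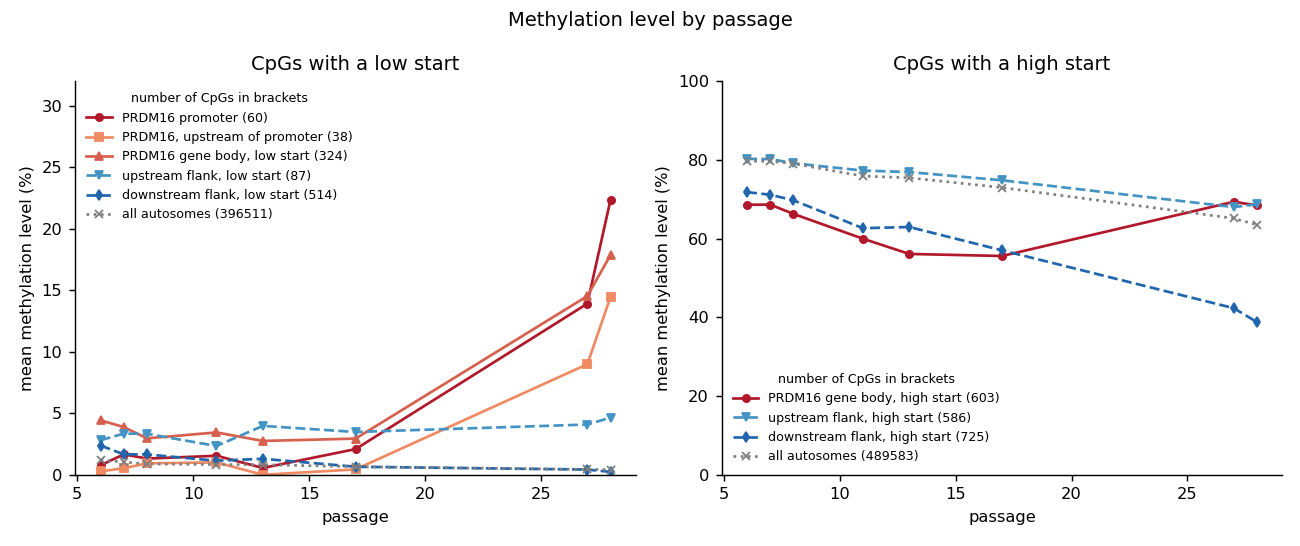
Mean methylation level in percent by passage for CpGs with a low start (left) and a high start (right), 1 point per library, with PRDM16 classes as solid lines, flanks as broken lines and all autosomes dotted. PRDM16 classes stand higher at passages 27 and 28 than at passage 17, whereas the downstream flank and the autosomes stand lower.

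Up to passage 17 the gene body was lower at each passage than at the one before. Taken without a split, its 927 CpGs were at 46.2%, 46.0%, 44.1%, 40.2%, 37.4% and 37.2% at passages 6, 7, 8, 11, 13 and 17, a slope of -0.937 points per passage (SE 0.154). Passages 27 and 28 departed from this line, at 50.2% and 50.7%. These 6 libraries are the baseline against which the late rise was seen, so their course is also given without a test.

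Over the same 6 libraries the promoter slope was 0.0512 points per passage (SE 0.0637). For the gene body minus the downstream flank the slope was -0.0722 points per passage (SE 0.155), within its error of 0. Against the upstream flank it was -0.501 points per passage (SE 0.146).

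Where a gene body CpG started was related to how it stood late. The 96 CpGs that started between 20% and 40% had 30.3% ± 2.71 over passages 6 to 8, 20.2% ± 2.17 over passages 11 to 17 (SD, n = 3 each) and 54.7% at both late passages. The 120 CpGs that started between 40% and 60% had 50.6% early, 39.9% over passages 11 to 17 and 61.2% late. Those 2 classes ended above their start.

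CpGs with a higher start did not end above it. The 150 that started between 60% and 80% had 70.5% early, 57.5% over passages 11 to 17 and 67.7% late. For the 237 that started at 80% or more, the values were 90.1%, 80.8% and 79.3%, so the most methylated class had no late rise. At the low end, the 227 CpGs under 5% at the start had 0.505% early, 0.875% over passages 11 to 17 and 12.1% late, and the 97 between 5% and 20% had 11.4%, 8.12% and 25.8%. The classes were cut on passages 6 to 8, so the means of those passages are set by the cut.

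The same starting classes in the downstream flank were far lower late. CpGs that started between 20% and 40% had 30.9% early, 20.7% over passages 11 to 17 and 6.99% late. Those between 40% and 60% had 50.6%, 34.9% and 13.0%, and those at 80% or more had 90.8%, 83.7% and 67.9%. The upstream flank stood above the downstream one late. Its CpGs that started between 20% and 40% had 30.4% early, 33.6% over passages 11 to 17 and 28.3% late. Those between 40% and 60% had 51.2%, 46.4% and 38.1%, and those at 80% or more had 92.9%, 89.6% and 82.9%, so that the highest class stood above that of the gene body late.

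**Figure D4:**
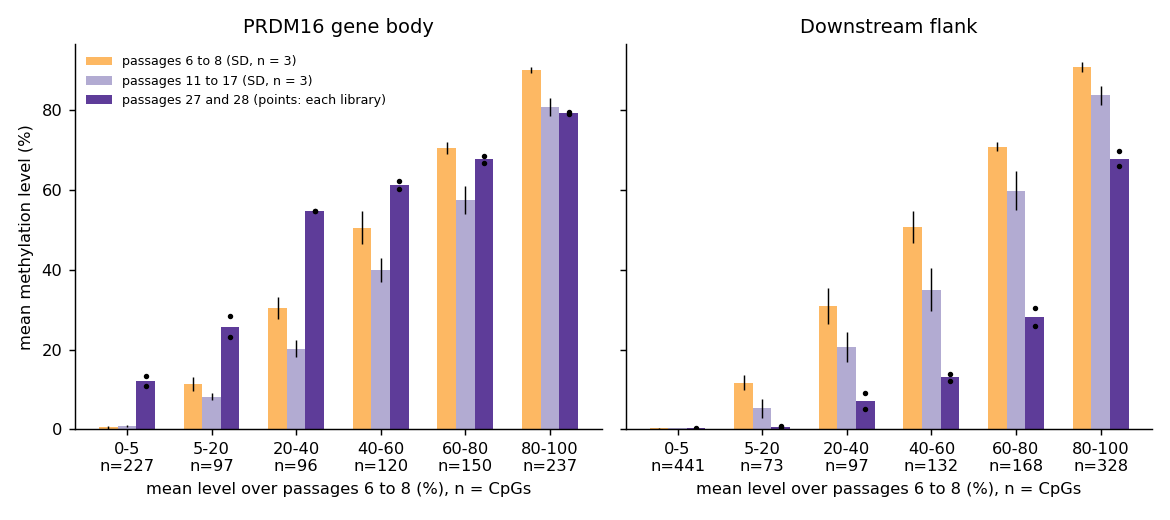
Mean methylation level in percent by starting class for the PRDM16 gene body (left) and the downstream flank (right). Bars are means over passages 6 to 8, 11 to 17 (error bars, SD, n = 3) and 27 and 28 (points, each library); gene body CpGs starting at 20% to 40% reach 54.7% late, those of the flank 6.99%.

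The split itself lay between CpGs of unlike course. The CpG nearest below the split, at 3359081 close to the window end, had an early mean of 18.8% and a late mean of 5.17%. The one nearest above, at 3281114, had 20.3% early and 85.7% late, with 15.4%, 0% and 0% at passages 11, 13 and 17.

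Tile by tile, 35 of the 141 tested tiles of the window were called as gains over the 8 libraries, where 0.166% of all 78387 tested autosomal tiles were. Losses were called in 18 of the 141, and in 33.9% of all tested tiles. All counts of window tiles rest on the libraries that chose the locus and are descriptions. Without passage 28, 17 of 138 tested window tiles were gains and 10 were losses, where 0.121% and 25.4% of all tested tiles were. Of the 35 gains, 23 started under 20%. In 64 of the 153 window tiles with a level, passages 27 and 28 both lay above each earlier library, as they did in 0.996% of all 105631 autosomal tiles.

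Over passages 6 to 17 alone, 0 of 125 tested window tiles were gains and 27 were losses by the limma-moderated fit, and 1 rising tile had an unadjusted p under 0.05. Among all 76327 tested tiles 0.181% were gains and 10.5% were losses over those passages. Without passage 6, 13 of 121 tested window tiles were losses, where 6.60% of all tested tiles were. Limma on logit levels called 0 gains and 2 losses among the 125, and 0.909% of all tiles as losses. In the flanks, losses were called in 37 of 141 tiles downstream and 4 of 88 upstream, so the window lay between them.

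Passages 27 and 28 were also set against passages 11, 13 and 17 in the same fit, with the late rise known. Gains were called in 63 of 138 tested window tiles and losses in 6, where 0.614% of all 72839 tested tiles were gains and 23.5% losses. The gains comprised 3 promoter tiles, 2 tiles upstream of the promoter and 58 gene body tiles. Their late level exceeded that of passages 11 to 17 by a median of 29.0 points, between 10.9 and 82.2. Downstream of the window 0 of 131 tested tiles were gains and 69 were losses by the limma-moderated fit, and 0 rising tiles had an unadjusted p under 0.05. Limma on logit levels also called 0 gains there. Upstream, 3 of 88 were gains and 26 were losses. This comparison and that over passages 6 to 17 share the libraries of passages 11 to 17.

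**Figure D5:**
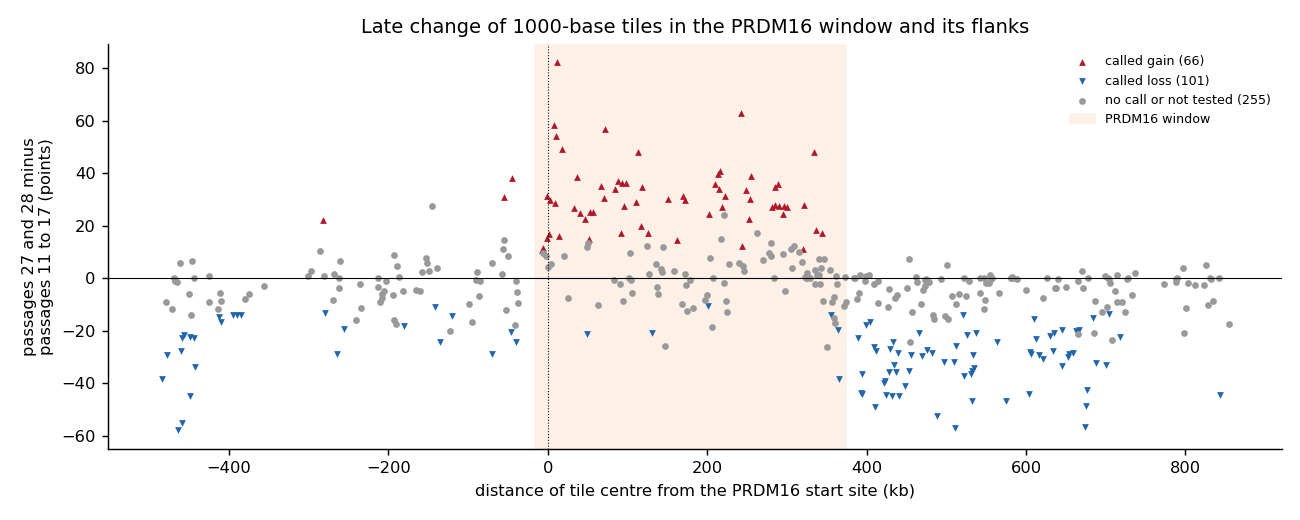
Level at passages 27 and 28 minus level at passages 11 to 17, in percentage points, for each 1000-base tile with a level in the PRDM16 window (shaded) and its flanks, by distance from the start site in kb. Upward triangles are called gains, downward triangles called losses; 63 of the 66 gains lie in the window, and losses fill the flank to the right.

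The late gains of the window ended before its far end. The farthest downstream one was centred 344 kb past the start site. Upstream no such end was seen inside the window, whose first tile with a level, centred 7.24 kb before the start site, was itself a gain. In the 50 kb beyond 350 kb from the start site, which include the last part of the window, low-start CpGs changed by -1.35 points from passages 11 to 17 to the late passages, and high-start CpGs by -17.8 points. The 50 kb before that, from 300 to 350 kb, had changes of 6.24 points for low-start and 9.77 points for high-start CpGs. Of the 16 window tiles past the last gain, 13 were tested, 3 were losses, and the median change was -9.02 points.

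Up to there the change varied with distance. It was largest from 50 to 100 kb past the start site, where low-start CpGs had 31.3% late against 5.42% over passages 11 to 17, and high-start CpGs had 72.1% against 46.2%. From 0 to 50 kb the changes were 18.3 points for low-start and 16.9 for high-start CpGs. From 100 to 300 kb they ranged from 11.5 to 14.9 points for low-start and from 8.84 to 22.7 for high-start CpGs. In the 50 kb before the start site, which reach into the upstream flank, the 78 low-start CpGs changed by 15.6 points and the 40 high-start CpGs by -7.59 points. These classes did not share a place. All 38 window CpGs before the promoter and 59 of the 60 promoter CpGs started low, so nearly all of the 40 lay in the upstream flank. From 50 to 100 kb before the start site, inside that flank, the 7 low-start CpGs had 4.01% over passages 11 to 17. At the late passages they had 11.8% and 28.0%, and the 82 high-start CpGs there changed by -1.80 points. Farther out in the flank, the steps of 50 kb with a low-start value changed by -0.481, -1.08 and -4.17 points.

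Upstream of the window, 3 tiles of the flank were late gains, and 2 of them lay close to it. The tile at 2940001, 45.2 kb before the start site, had 64.9% and 64.7% at passages 27 and 28, against 43.8%, 22.95% and 13.2% at passages 11, 13 and 17 (adjusted p = 0.00376, limma-moderated fit, and 0.0580 without passage 27). The tile at 2931001, 54.2 kb before it, had 53.6% and 52.1% late, against 22.1%, 21.4% and 21.7% (adjusted p = 0.00140 in the same fit). The third, at 2703001, lay 282 kb upstream and had 78.1% and 81.8%, against 39.5%, 77.1% and 57.1% (adjusted p = 0.0203). Passage 13 came close to the late libraries there, and the call was lost without passage 11, 27 or 28, with an adjusted p of up to 0.349. Over the 8 libraries, the tile at 2929001 was the 1 flank gain, with 26.1% and 45.2% late and between 18.1% and 30.2% before (adjusted p = 0.0356). It did not pass without passage 6, 7, 8 or 28, at adjusted p between 0.0518 and 0.774.

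The largest rise of a tested tile from passages 6 to 8 to passages 27 and 28 was at 3228001, 243 kb past the start site, with 71.0 points. Its level was 75.7% and 90.0% at passages 27 and 28, against 14.9%, 17.5%, 3.03%, 12.5%, 10.5% and 36.7% at passages 6, 7, 8, 11, 13 and 17. The late libraries exceeded every other, and passage 17 was the highest of the rest. Its 3 CpGs differed among themselves. The CpGs at 3228499 and 3228508 were methylated in all 13 reads at passage 27 and all 12 at passage 28. At passage 17 they already had 5 of 9 and 6 of 9 reads methylated. They lie close together, and whether the same reads covered both was not tested. The CpG at 3228912 had 0 of 12 reads methylated at passage 17, and 2 of 11 and 3 of 6 at passages 27 and 28.

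The next largest by that measure was at 2993001, 7.76 kb past the start site, with 4 CpGs. It had 63.1% and 86.4% late, and between 4% and 19.4% in the 6 earlier libraries. The CpG at 2993022 was methylated in all 17 and all 19 of its reads at passages 27 and 28, and the CpG at 2993117 in 18 of 20 and 20 of 22. Of the CpGs between them, that at 2993036 had only 1 of 11 and 5 of 11, and that at 2993111 had 5 of 17 and 7 of 7.

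Neighbouring tiles were low at passage 17 and stood above their start late. The tile at 2997001, with 6 CpGs 11.8 kb past the start site, had 45.7%, 48.2%, 21.3%, 13.8%, 2.13% and 0% at passages 6 to 17, and 87.3% and 87.7% at passages 27 and 28. It stood 82.2 points above passages 11 to 17 late, the largest such difference among the called tiles of the window. It was a gain in that comparison but not in the trend over 8 libraries. The tile at 2996001 beside it, with 3 CpGs, had 78.4% and 58.3% late against 20%, 16.7% and 5.41% at passages 11, 13 and 17. It was a gain over 8 libraries, and was not called without passage 7, 27 or 28, where its fitted changes were 38.8, 21.4 and 38.6 points.

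Other gains started lower. The tile at 3022001, with 3 CpGs, had no methylated read in the first 6 libraries and 42.9% and 34.5% late. The tile at 3038001, with 11 CpGs, had 30.3% and 23% late and at most 3.76% before. The tile at 3052001, with 11 CpGs, had 47.5% and 45.2% late and between 7.34% and 17.9% before. In all 3 the late libraries lay above the other 6.

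Some low-start tiles showed no such change. Of 55 window tiles with a level that started under 20%, 20 stood at 20% or more late, 19 between 5% and 20%, and 16 under 5%. Of those 16, 7 lay between 300 and 350 kb from the start site and 3 beyond the last gain. Of the 19 between 5% and 20%, the counts were 5 and 1. Of the 20 at 20% or more, they were 2 and 0. The tiles at 3308001, 3310001 and 3314001, with 11, 4 and 5 CpGs, were at 0.476%, 0% and 0% late. The number of CpGs listed per tile had a median of 8.5 in the tiles under 5% late, 11 in those between, and 8 in those at 20% or more.

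The largest falls lay mostly at the far end. The tile at 3351001, with 9 CpGs 366 kb past the start site, had 33.9% and 38.0% late, against 86.1%, 87.8% and 79.6% early. Its mean over passages 11 to 17 was 74.4%. The tiles at 3359001, 3358001 and 3346001 also lay past 360 kb, and their late means were lower than their early means by 39.0, 36.8 and 30.6 points. Over passages 11 to 17 their means were already 31.5%, 44.5% and 58.2%, beside 22.3%, 44.9% and 41.2% late. Tile 3358001 was a loss over 8 libraries but not without passage 6, where its fitted change was -32.1 points. The exception was the tile at 3124001, 139 kb past the start site, with 60.9% and 42.2% late, against 83.3%, 87.0% and 83.8% early. Over passages 11 to 17 this tile had a mean of 57.3%. It was a loss over 8 libraries but not without passage 28, where its fitted change was -29.2 points.

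A few tiles kept a high level at every passage. The tile at 3325001, with 7 CpGs, had 100% and 98.8% late and 88.9% at passage 17. The tile at 3035001 had 94.4% and 94.6% late and 84.1% at passage 17, and that at 3263001 93.6% and 94.2% late and 76.7% at passage 17. In each of the 3, both late libraries lay above passage 17. However, the tiles were picked for the highest late means among window tiles starting at 80% or more, which favours such values. The 237 gene body CpGs that started at 80% or more had 90.1% early and 79.3% late.

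The locus stood at the extreme of the autosomes in windows of 100 kb. Among 6041 windows with at least 20 low-start CpGs, the median change from passages 11 to 17 to the late passages was -0.134 points. The 4 largest changes were those of the consecutive windows from 2900001 to 3300000 on chromosome 1, at 15.8, 24.4, 13.2 and 13.9 points in that order, the first of which begins in the upstream flank. The fifth, at 6.40 points, was on chromosome 16 from 1000001. Among 6863 windows with at least 20 high-start CpGs, the median was -8.98 points and 221 were above 0. The same 4 windows held ranks 1, 2, 3 and 5, with 20.7 points from 3200001, 16.0 from 3000001, 8.61 from 3100001 and 6.16 from 2900001. The window from 3300001, which holds the last stretch of the locus and part of the downstream flank, ranked 10 for low-start CpGs at 3.03 points and 4706 for high-start CpGs at -12.8 points. The locus was chosen for this change, so these ranks are a description.

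The tiles whose 8 levels were most like those of 3228001 were sought among 78246 tested autosomal tiles outside the window, by root mean square distance over the 8 libraries. The nearest was at 8965001 on chromosome 4, at 18.0 points, with 72.1% and 67.5% late and 19.05% to 42.4% before. The second was the upstream flank tile at 2931001, at 22.4 points, and the third was at 942001 on chromosome 16, at 23.1 points, with 71.4% and 77.8% late. Within the window the tile at 2993001 was nearer, at 10.5 points.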

How the data were processed

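CpG methylation of 8 RRBS libraries was read from files that list hg19 positions, per the submitters' processing notes. Column 4, as deposited, gives methylated and total reads per CpG, and levels come from it. Column 5 holds a deposited score, which on every line equalled the rounded methylated share times 1000, and served only as that check. The aligner, the caller and whether duplicates were removed were not given in the sources used here. Positions are counted from 1.

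CpGs needed 5 reads in every library. Class means weight CpGs equally, and mean ± SD over passages 6 to 8 or 11 to 17 treats each passage as 1 library. Tiles of 1000 bases with at least 3 kept CpGs, and 10 methylated and 10 unmethylated reads over the libraries fitted, entered a quasi-binomial regression on passage with dispersion moderated by squeezeVar of limma 3.58.1 in R 4.3.3 and not under 1, tested two-sided by F and adjusted by Benjamini-Hochberg over all autosomal tiles tested. A call needed an adjusted p under 0.05 and a fitted change of 10 points. Class means and slopes were computed in Python 3.11.15. The fits were tested on simulated data. The p-values measure only the spread between these libraries, which may be technical.

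The locus, its classes and the comparisons were chosen with earlier results of these data known. The planned permutation tests over passages 11 to 28 are given as slopes without p, because the locus was picked for its late rise, and the tiles of the window are given as calls without p for the same reason. The comparison of late with middle passages and the unsplit slopes over passages 6 to 17 were chosen after seeing the data. Tiles named were all promoter tiles, called gains, the 5 largest rises and falls among tested tiles, 3 kept high, flank gains and the 3 most alike; the late gains of the flank and the low-start tiles under 5% late were chosen after their values were seen. Of the 35 gains some are given by count only. No hg19 annotation was used, so exons were not separated and neighbouring genes are not placed.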

Additional observations from a re-analysis of the deposited data

How the results depend on the processing

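In every alternative that gave a value, the 5 class results kept their sign. At 20 reads they rest on 5 high-start and 1 low-start gene body CpG and give 2.01 and 2.53 points per passage (gene body; gene body minus flanks) and 2.27 points for the low-start change with or without the flanks, and no promoter CpG remained. With every listed CpG the promoter slope was 0.815 and the low-start changes were 14.9 and, against the flanks, 15.7 points. A split at 10% gave 11.5 for both low-start changes, and a split at 40% gave 15.2 and 19.4 and a high-start slope of 0.437. One mean per tile gave 14.1 and 16.4. Against the upstream flank only, the high-start slope difference was 1.29 and the low-start change 11.2, and against the downstream flank only the slope difference was 2.17. For CpGs that start at 80% or more the slope difference from the flanks was 0.599. Leaving out each library gave 0.627 to 0.980 for the high-start slope, 0.839 to 1.32 for the promoter, 1.68 to 2.11 against the flanks, and 10.8 to 14.1 and 11.9 to 15.3 for the low-start changes.

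The 35 gains over 8 libraries became 9 at 10 reads (31 tiles tested), 20 with at least 5 CpGs and 18 by limma on logit levels. Under these settings 0.179%, 0.150% and 0.124% of all autosomal tiles tested were gains. The window gains numbered 0 over passages 6 to 17, and 17 to 44 without each library, where 0.121% to 0.203% of all tiles were gains. The 18 losses became 3, 11 and 10 under the first 3 settings, and 10 to 20 without each library. Of all tiles tested, 47.6%, 39.9% and 26.1% were losses under those settings, and 25.4% to 34.9% without each library. The 63 late gains became 13 at 10 reads and 35 with at least 5 CpGs, and 42 by limma on logit levels. The window shares were 44.8% of 29 tiles, 44.9% of 78 and 30.4% of 138, beside 45.7% in the main fit. Of all tiles tested, 0.825%, 0.434% and 0.364% were gains under these settings. Without passage 11, 13 or 17 the late gains numbered 59 to 61, where 0.394% to 0.671% of all tiles were gains. Fits without a late library are not counted here, since they leave a single library in that group. The 27 losses up to passage 17 became 3 at 10 reads, 17 with at least 5 CpGs, 2 by limma on logit levels, and 13 to 26 without each library. Tested window tiles numbered 20, 70 and 125 under the first 3 settings, so 15%, 24.3% and 1.6% of them were losses. The shares among all tiles tested were 18.9%, 14.8% and 0.909%, and 4.50% to 10.4% without each library. The window share thus lay below that of all tiles at 10 reads and above it under the other 2. Fewer tiles were tested at 10 reads and at 5 CpGs; for the other settings the cause was not tested. At 20 reads 0 window tiles could be tested.

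Over passages 6 to 17 only, 17 named tiles had a fitted change of the opposite sign. These were 2929001 (-0.436 points), 2980001 (-1.19), 2985001 (-0.678), 2996001 (-21.7), 2997001 (-48.3), 3035001 (-10.4), 3038001 (-0.812), 3057001 (-28.6), 3070001 (-13.4), 3103001 (-16.9), 3148001 (-1.97), 3234001 (-13.4), 3263001 (-4.03), 3281001 (-8.34), 3282001 (-11.7), 3322001 (-3.30) and 3325001 (-9.02). Tiles 2997001, 3103001 and 3234001 passed the threshold as losses there. Of these, 3103001 and 3234001 were gains over the 8 libraries. Leaving out each library moved tile 3035001 between -0.232, without passage 28, and 6.77. Among all values of named tiles under the alternatives, 507 kept their direction and side of the adjusted p threshold. Another 90 kept the direction but no longer passed it, and 6 newly passed it. These counts rest on the adjusted p alone and leave out the minimum change that a call also needs. The 507 thus include values under that minimum, such as 8.55 points for tile 2985001 without passage 28. The 90 include tile 2986001 without passage 6, whose main change of 4.79 points was never called. No paired analysis was possible because no passage has a second library.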

Other observations

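Outside the PRDM16 locus, few windows of 100 kb had low-start CpGs that stood over 5 points higher late, although 1616 of 6041 windows stood above 0. Adjoining windows on chromosome 16 had 7.96% late against 1.56% over passages 11 to 17 from 1000001 (172 CpGs), and 9.24% against 3.76% from 900001 (40 CpGs). A window on chromosome 11 from 71300001 had 7.46% against 1.85% (29 CpGs). Of all windows, 7 changed by more than 5 points, and 4 of them are those of the locus. For high-start CpGs, the window from 21400001 on chromosome 14 had 86.8% against 80.3% (20 CpGs).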
